A study of Mus musculus with 16 samples.

Results

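The prion protein gene Prnp, the tau gene Mapt and 8 genes for enzymes that add phosphate to tau or remove it were followed through bulk RNA sequencing of mouse brain. The 8 are the kinase genes Gsk3a, Gsk3b, Cdk5, Mark1, Mark2 and Fyn, the kinase activator gene Cdk5r1 and the phosphatase subunit gene Ppp2r2a. The 10 genes were taken by symbol from a table of 54532 entries, in which each of them has a single entry, and all 10 passed the filter on low counts. The 16 libraries came from female mice of 9 months of age and formed 4 groups of 4. Ch25h+/+ Tau- animals have the intact cholesterol 25-hydroxylase gene and no tau transgene, and Ch25h+/+ Tau+ animals have the intact gene and are read here as carrying a tau transgene. Ch25h-/- Tau- animals lack Ch25h, and Ch25h-/- Tau+ animals lack Ch25h and are read as carrying the transgene. No other allele or agent is given for any group. The labels name neither the tau line, its promoter nor the cells that express it, and they do not say whether the libraries of a group came from separate animals, so the p-values measure only the spread between these libraries.

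Tau is a protein that binds and stabilises microtubules, mostly in axons. Phosphate groups on its serine and threonine residues loosen that binding, and heavily phosphorylated tau is the main component of neurofibrillary tangles. GSK3, CDK5 with its activator p35 (the product of Cdk5r1) and the MARK kinases are among the best studied kinases that put phosphate on these residues, FYN acts on a tyrosine, and protein phosphatase 2A (PP2A), with the B subunit that Ppp2r2a encodes, is the main phosphatase of tau in brain. The cellular prion protein, encoded by Prnp, is a membrane-anchored glycoprotein that is abundant in neurons and is also made by glia. The Prnp promoter with its noncoding sequence is a common driver of transgenes in mouse brain, in tau lines among others.

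Depth was 15530352 to 25602500 counts per library. Ch25h, the check of the genotype labels, had 5 to 30 counts in each Ch25h+/+ library and 0 counts in all 8 Ch25h-/- libraries. The tissue label is frontal cortex, while the text of the series names hippocampus. Summed cortex markers ranged from 471 to 608 CPM (counts scaled to a fixed library total after TMM normalisation) and summed hippocampus markers from 75.1 to 158 CPM. Summed neuron markers were at 4178 to 5507 CPM, and no list of cell type markers had a gene at 0 in all libraries. A choroid plexus list ranged from 14.8 to 2727 CPM, with wide ranges in all 4 groups. A ribosomal RNA transcript set apart 7 of the 8 Ch25h-/- libraries, at 2289 to 5684 CPM on total counts, against 111 to 475 in the other 9 libraries. Only replicate 1 of Ch25h-/- Tau+ was low among the Ch25h-/- libraries, so in Tau- animals this library class and Ch25h loss cannot be told apart, and a fit with the class as a covariate rests on that library.

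Compared per kilobase of exon, as mean CPM per kb, Prnp had the highest level of the 10 genes in every group. In Ch25h+/+ Tau- it stood at 334 CPM per kb, followed by Cdk5r1 at 107, Mapt at 73.2, Gsk3a at 58.5 and Cdk5 at 42.7. Mark1 at 32.6, Fyn at 28.5, Gsk3b at 21.6, Mark2 at 21.6 and Ppp2r2a at 16 CPM per kb had the lower levels. Among neighbours in this order, the libraries of Gsk3b and Mark2 overlapped and those of all other neighbours did not. The order of the means was the same in the other 3 groups, where Mark1 overlapped with Fyn and Gsk3b with Mark2 in Ch25h+/+ Tau+, Cdk5 with Mark1 in Ch25h-/- Tau-, and Fyn with Gsk3b and Mark2 with Ppp2r2a in Ch25h-/- Tau+.

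The first question was which of these genes differed with tau status. Prnp rose with tau in both Ch25h genotypes, by about the same amount, and was the only one of the 10 genes to pass the test in either (edgeR, p adjusted over all genes, threshold 0.05). Prnp lies on the forward strand at chr2:131909928-131938429 (GRCm38). The 250 bases before its start are shown because both Prnp and a feature just upstream of it differed with tau status. They are from RefSeq (GRCm38.p6, chr2:131909678-131909927, forward strand), with capitals for GGGCGG, the letters of an Sp1 box, and CCAAT, those of a CCAAT box, on either strand.
Prnp: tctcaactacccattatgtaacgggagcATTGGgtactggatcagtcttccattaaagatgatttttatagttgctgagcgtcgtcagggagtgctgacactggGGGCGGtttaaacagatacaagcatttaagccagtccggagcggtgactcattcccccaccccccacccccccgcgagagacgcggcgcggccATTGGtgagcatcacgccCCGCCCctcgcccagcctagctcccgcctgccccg
This window holds 2 matches of GGGCGG and 2 of CCAAT, and 58.8% of its bases are G or C. Of 32851 promoter windows of this length in the same RefSeq table, 32.7% hold GGGCGG and 33.8% hold CCAAT. A match is only a match of letters.

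In Ch25h+/+ Tau- the Prnp level was 838.8, 748.1, 789.3 and 754.1 CPM in the 4 libraries. In Ch25h+/+ Tau+ it was 1934.7, 1641.4, 1505 and 1627.1 CPM. Every Tau+ library lay above every Tau- library, with a wide gap between the groups. In Ch25h-/- Tau- the level was 707.8, 748.5, 735.0 and 832.6 CPM, and in Ch25h-/- Tau+ it was 1691.4, 1820.9, 1414.3 and 1553.9 CPM, again with no overlap. The group means were 783 ± 41.7, 1677 ± 182, 756 ± 53.8 and 1620 ± 175 CPM (SD, n = 4), first for intact Ch25h without and with tau, then for Ch25h loss without and with tau. The fitted log2 fold change was 1.10 (SE 0.09, 95% interval 0.91 to 1.29), a 2.14-fold rise, in Ch25h+/+, with an adjusted p of 2.43e-06 by edgeR's quasi-likelihood test. In Ch25h-/- it was 1.10 (SE 0.09, 95% interval 0.91 to 1.29), with an adjusted p of 9.37e-06. The test of the difference between these log2 fold changes gave 0.0001, with a 95% interval of -0.27 to 0.27. Over all 17736 genes tested, 1.56% passed for tau in Ch25h+/+ (261 higher and 16 lower) and 0.0395% in Ch25h-/- (5 higher and 2 lower). Against this background 1 of the 10 genes passed in each genotype.

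**Figure D1:**
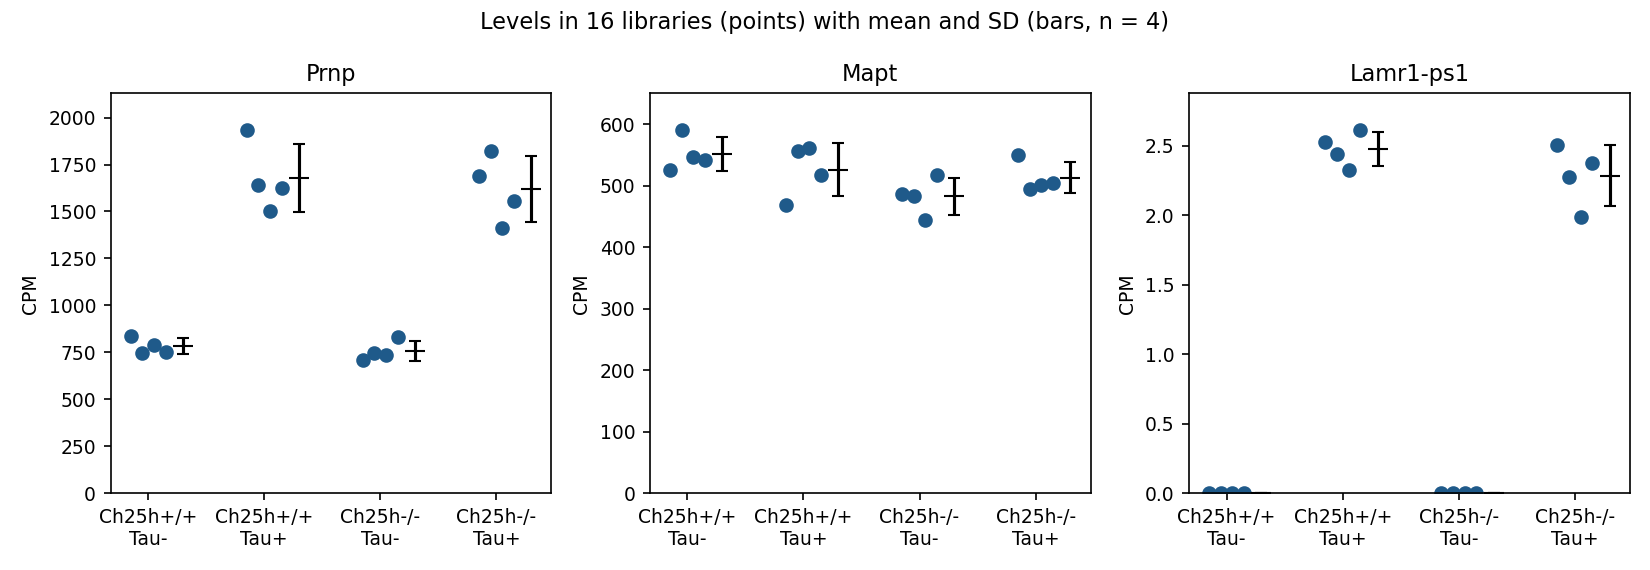
Level in CPM (y axis, from 0) of Prnp, Mapt and the pseudogene Lamr1-ps1 in each of the 16 libraries, by group (x axis); points are libraries, and bars are the mean and SD of 4. Prnp is higher in all 8 Tau+ libraries than in any Tau- library, Mapt is not, and Lamr1-ps1 is at 0 in all 8 Tau- libraries.

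Microglia markers were higher with tau in Ch25h+/+. The 5 microglia markers summed to 252 to 268 CPM in Ch25h+/+ Tau- and 318 to 413 CPM in Ch25h+/+ Tau+, with no overlap. In Ch25h-/- the sums were 251 to 281 CPM in Tau- and 249 to 304 CPM in Tau+, which overlap. The 5 astrocyte markers summed to 2502 to 2841 CPM in Ch25h+/+ Tau- and 2365 to 4426 CPM in Ch25h+/+ Tau+. The part of these markers in the rise of Prnp was not tested. In bulk tissue, a change in the number of cells of a type and a change in RNA per cell cannot be told apart.

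The features around Prnp were then compared, since the counts of a gene cannot separate its own transcripts from those of a transgene that holds part of it. Lamr1-ps1, a processed pseudogene of the ribosomal protein gene Rpsa on the same strand as Prnp (chr2:131904086-131904959, GRCm38), ends 4.969 kb before Prnp starts. It had 0 counts in all 8 Tau- libraries. It had 41, 58, 50 and 56 counts in Ch25h+/+ Tau+ and 64, 35, 35 and 38 counts in Ch25h-/- Tau+, so that every Tau+ library had reads there and no Tau- library did. The means were 2.48 ± 0.124 and 2.28 ± 0.219 CPM (SD, n = 4). With 3 counts per library taken as the floor for the Tau- libraries, Lamr1-ps1 was at least 17.0-fold higher in Ch25h+/+ Tau+ and at least 13.0-fold higher in Ch25h-/- Tau+ (adjusted p 2.43e-06 and 1.27e-05, edgeR). Rpsa itself, on chromosome 9, was at 315 ± 27.0, 313 ± 41.5, 294 ± 9.39 and 290 ± 11.3 CPM (SD, n = 4) in the 4 groups in the order given above, and the ranges of these groups overlapped.

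On the other side of Prnp, the doppel gene Prnd, which starts 12.43 kb after Prnp ends, had 0 or 1 count in every library. Rassf2, a gene of the Ras association family that lies 50.99 kb after the end of Prnp, differed with tau by 0.11 in Ch25h+/+ and 0.05 in Ch25h-/- (log2) and did not pass the test. Of the 11 other genes tested within 0.5 Mb of Prnp, Lamr1-ps1 was the only one to pass for tau in either genotype. The Prnp locus showed tau-linked counts at Prnp and at the pseudogene upstream of it, and none past the test at its other tested neighbours. The annotated 3-exon transcript of Prnp has 2184 bases, of which 765 are coding with the stop codon and 65% are not coding. Gene-level counts do not show which of these bases the added reads cover, and whether the added Prnp counts come from a transgene was not tested.

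**Figure D2:**
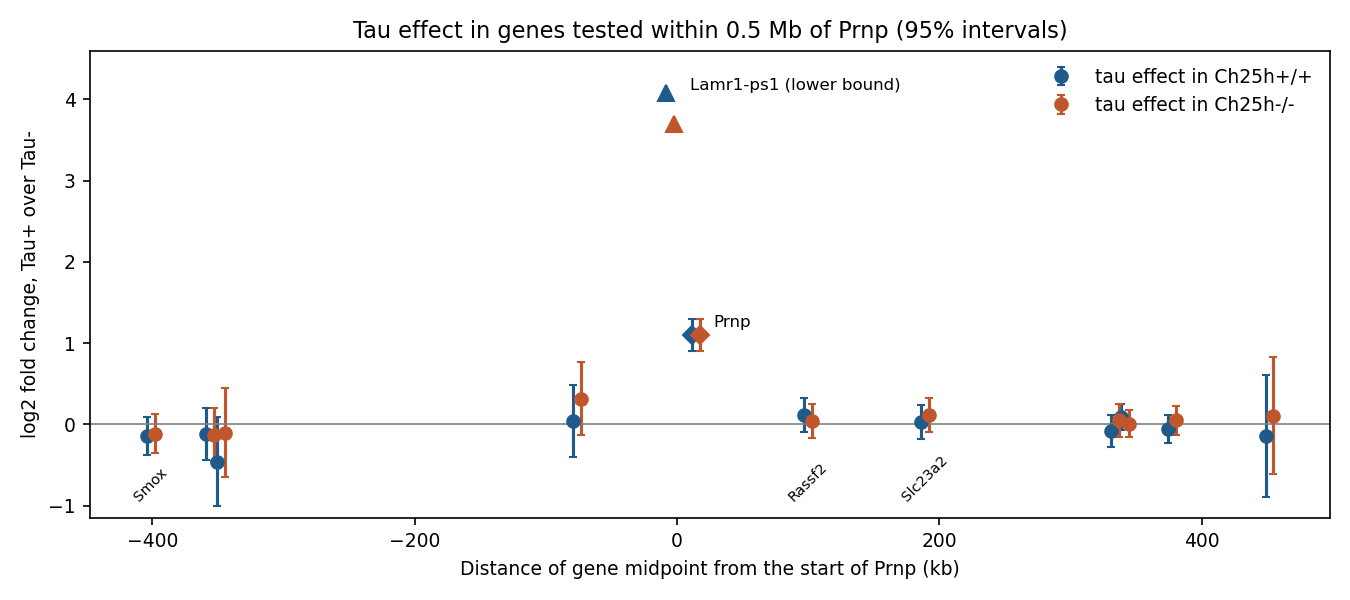
Log2 fold change of Tau+ over Tau- (y axis) with 95% intervals for the genes tested within 0.5 Mb of Prnp, by the distance of each gene's midpoint from the start of Prnp in kb (x axis), in Ch25h+/+ and Ch25h-/-. Diamonds are Prnp at 1.10, triangles are the lower bounds for Lamr1-ps1 (17.0- and 13.0-fold), and the intervals of all other genes include 0.

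Mapt, the endogenous tau gene (chr11:104231390-104332090, GRCm38), did not pass the test with tau status. Its level was 525.9, 590.7, 545.8 and 541.8 CPM in Ch25h+/+ Tau- and 468.0, 557.1, 560.5 and 517.6 CPM in Ch25h+/+ Tau+. It was 486.2, 483.7, 444.4 and 517.2 CPM in Ch25h-/- Tau- and 549.8, 495.0, 500.9 and 504.7 CPM in Ch25h-/- Tau+. Tau+ and Tau- libraries overlapped in both genotypes. The log2 fold change with tau was -0.07 (95% interval -0.22 to 0.09, adjusted p = 0.915) in Ch25h+/+ and 0.09 (95% interval -0.07 to 0.24, adjusted p 1.0) in Ch25h-/-, by edgeR. Counts of human tau sequence were not analysed here. Gene-level counts at Mapt cannot separate its own transcripts from any reads of a tau transgene placed there.

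Since a ratio of 2 genes in one library does not depend on how libraries are scaled, Prnp was also set against Mapt. The count ratio of Prnp to Mapt was 1.42 ± 0.136 in Ch25h+/+ Tau- and 3.23 ± 0.633 in Ch25h+/+ Tau+ (SD, n = 4). The difference of the mean log2 ratios was 2.24-fold. It was 1.57 ± 0.0859 in Ch25h-/- Tau- and 3.16 ± 0.363 in Ch25h-/- Tau+ (SD, n = 4), and the difference of the mean log2 ratios was 2.01-fold. Both had an exact two-sided permutation p of 0.0286, the smallest that 4 against 4 libraries allow, and an adjusted p of 0.152 over the 16 ratio tests made. None of the 16 passed after adjustment.

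None of the 8 kinase, activator and phosphatase genes passed the test with tau status, by edgeR, DESeq2 or limma-voom. Over these 8 and Mapt, log2 fold changes were -0.17 to 0.07 in Ch25h+/+ (1 above and 8 below 0) and -0.03 to 0.12 in Ch25h-/- (6 above and 3 below 0). Their 95% intervals reached from -0.35 to 0.21 in Ch25h+/+, that is 0.784- to 1.16-fold, and from -0.19 to 0.29 in Ch25h-/-. The value farthest from 0 in Ch25h+/+ was that of Cdk5r1, which encodes the p35 activator of CDK5, at -0.17 (adjusted p = 0.562, edgeR). Libraries of both tau states did not overlap for Prnp, higher in Tau+, and for Mark2, lower in Ch25h+/+ Tau+, where such a separation was found for 5.86% of all genes. In Ch25h-/- only Prnp was separated, against 2.14% of all genes. Mark2, a microtubule affinity regulating kinase, was at 166 to 177 CPM in Ch25h+/+ Tau- and 152 to 164 CPM in Ch25h+/+ Tau+, with a log2 fold change of -0.11 (95% interval -0.24 to 0.01) and an adjusted p of 0.602 by edgeR.

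**Figure D3:**
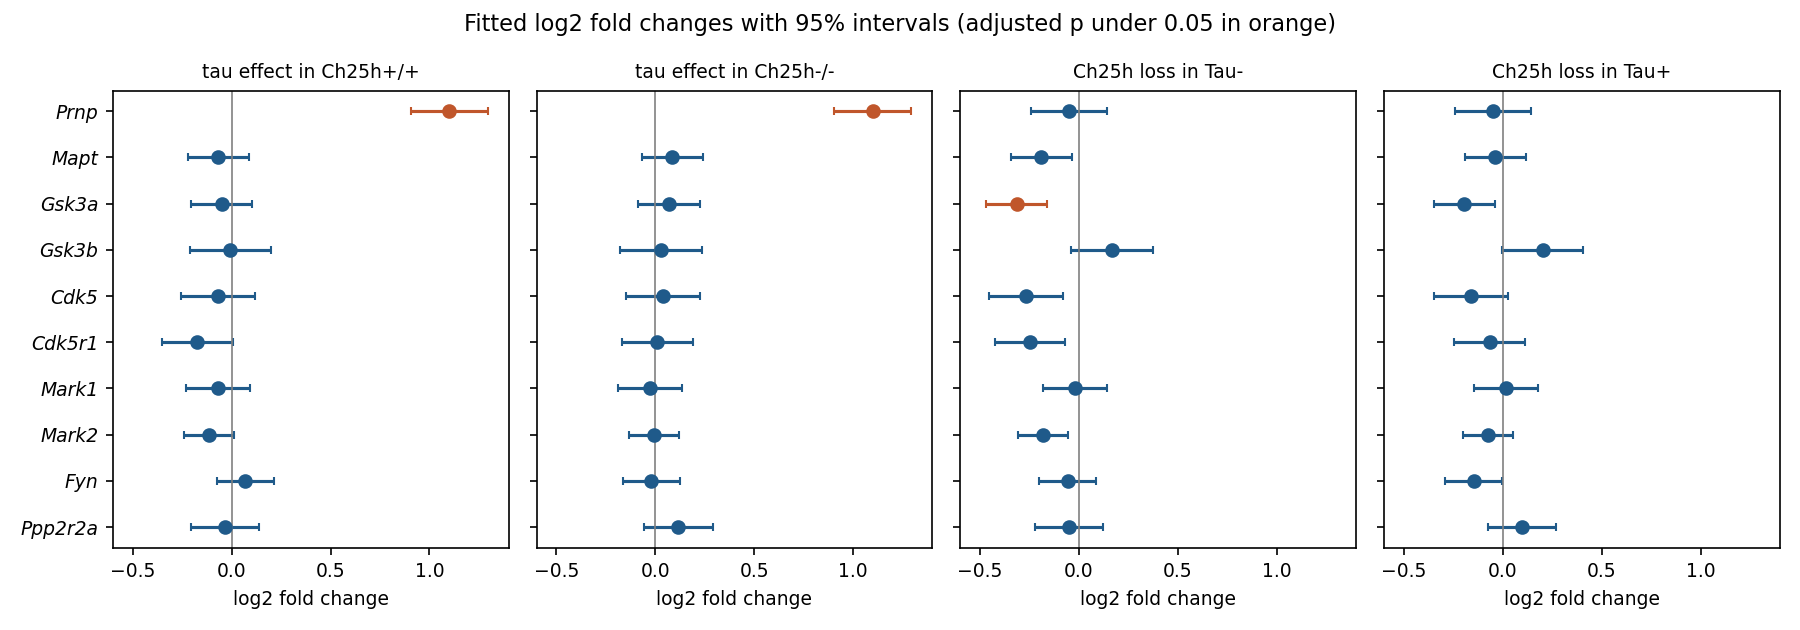
Fitted log2 fold changes (x axis) with 95% intervals of the 10 genes (y axis) in the 4 comparisons between groups; orange marks an adjusted p under 0.05. Prnp stands at 1.10 in both tau comparisons, and Gsk3a at -0.31 for Ch25h loss in Tau- is the other value past the threshold.

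The next question was which genes differed with loss of Ch25h at the same tau status. These comparisons use the same 16 libraries as those with tau. Gsk3a, which encodes glycogen synthase kinase 3 alpha, fell in Tau- animals without Ch25h, while the value of its paralogue Gsk3b went the other way and did not pass the test. The windows before the start of both genes are shown because the 2 kinases are close relatives with opposite values here. They are from RefSeq (GRCm38.p6), 250 bases each, 5′ to 3′ on the strand of the gene, with the same letters in capitals as for Prnp; Gsk3a lies on the reverse strand with its window at chr7:25237852-25238101, and Gsk3b on the forward strand with its window at chr16:38088751-38089000.
Gsk3a: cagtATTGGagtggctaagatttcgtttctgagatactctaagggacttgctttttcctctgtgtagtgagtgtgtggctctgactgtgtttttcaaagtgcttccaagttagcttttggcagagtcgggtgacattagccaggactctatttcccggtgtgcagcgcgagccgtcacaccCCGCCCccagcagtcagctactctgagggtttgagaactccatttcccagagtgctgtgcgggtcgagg
Gsk3b: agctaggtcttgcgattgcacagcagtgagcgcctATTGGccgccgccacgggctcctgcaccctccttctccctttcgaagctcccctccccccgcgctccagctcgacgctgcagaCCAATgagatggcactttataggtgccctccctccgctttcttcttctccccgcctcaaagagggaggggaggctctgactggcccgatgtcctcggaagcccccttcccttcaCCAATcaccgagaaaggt
The Gsk3a window holds 1 match of GGGCGG and 1 of CCAAT and is 52% G or C. That of Gsk3b holds 0 matches of GGGCGG and 3 of CCAAT and is 62% G or C. In the longest annotated transcripts the order is the reverse, at 59.8% G or C in Gsk3a and 46.1% in Gsk3b.

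Gsk3a (chr7:25228258-25237851) was at 173.1, 173.4, 163.1 and 169.3 CPM in Ch25h+/+ Tau- and at 123.1, 148.2, 128.8 and 145.9 CPM in Ch25h-/- Tau-. All 4 libraries without Ch25h lay below all 4 with it. Its log2 fold change was -0.31 (SE 0.07, 95% interval -0.47 to -0.16), or 0.804-fold, with an adjusted p of 0.0497 by edgeR. Summed neuron markers overlapped between these groups, at 4619 to 5047 CPM with Ch25h and 4178 to 5507 CPM without it. Summed astrocyte markers were at 2502 to 2841 CPM (median 2589) with Ch25h and 2826 to 3425 CPM (median 3137) without it. Summed oligodendrocyte markers were at 2397 to 3289 CPM and 1874 to 3031 CPM. The part of these markers in the result was not tested. In Tau+ animals Gsk3a was at 168.7, 156.2, 166.9 and 164.3 CPM with Ch25h and at 160.6, 142.2, 129.7 and 140.4 CPM without it. The groups overlapped through the highest library without Ch25h, replicate 1, which is the one low in the ribosomal RNA transcript. The log2 fold change in Tau+ was -0.20 (95% interval -0.35 to -0.04, adjusted p = 0.123, edgeR). Of the 16 fits that leave out 1 library, only that without this replicate 1 called Gsk3a in Tau+, at -0.27 (adjusted p = 0.0312, edgeR). The adjusted p reached 0.273 over these fits. Without that library, library class and Ch25h loss cannot be told apart in Tau+ either. The interaction of Ch25h loss with tau was 0.12 (95% interval -0.10 to 0.34) for Gsk3a and did not pass.

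The call for Gsk3a in Tau- was kept in 5 of 8 alternative fits and lost in 3. It was kept with relative log expression factors (adjusted p = 0.0474), no filter (0.0396), only the 8 libraries compared (0.0231), DESeq2 (0.00551) and limma-voom (0.0109), at log2 fold changes of -0.32 to -0.31. It was lost with a mean of at least 50 counts, at -0.29 (adjusted p = 0.0507). With a covariate for libraries rich in the ribosomal RNA transcript its log2 fold change was -0.09 (adjusted p 1.0), and with offsets that take out how each library's counts vary with GC content it was -0.09 (adjusted p = 0.614). It was kept in 3 of the 16 fits that leave out 1 library, those without replicate 1 of Ch25h+/+ Tau+ (adjusted p = 0.0216), replicate 4 of Ch25h-/- Tau- (0.0439) or replicate 1 of Ch25h-/- Tau+ (0.0256), and lost in the other 13, where the adjusted p reached 0.185. The log2 fold change was -0.36 to -0.26 over the 16 fits. Over all genes, 1.03% passed for Ch25h loss in Tau- (38 higher and 144 lower) and 3.55% in Tau+ (203 higher and 426 lower). Of the 10 genes 1 passed in Tau- and 0 in Tau+ by edgeR, 2 and 0 by DESeq2, and 5 and 1 by limma-voom. Over all genes, DESeq2 called 5.45% in Tau- and 7.88% in Tau+, and limma-voom 7.83% and 10.6%. An unadjusted p under 0.05 by edgeR was found for 5 of the 10 in Tau- and 2 in Tau+, against 20.9% and 23.9% of all genes.

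Gsk3b (chr16:38089001-38246084) was at 221.8, 226.2, 213.9 and 189.3 CPM in Ch25h+/+ Tau- and at 237.5, 251.3, 230.5 and 235.3 CPM in Ch25h-/- Tau-, with no overlap. In Tau+ animals it was at 164.1, 243.4, 235.7 and 204.2 CPM with Ch25h and at 225.7, 249.5, 240.8 and 258.9 CPM without it, with overlap. The log2 fold changes were 0.17 (95% interval -0.04 to 0.37, adjusted p = 0.347) in Tau- and 0.20 (95% interval -0.01 to 0.41, adjusted p = 0.221) in Tau+, by edgeR. The count ratio of Gsk3a to Gsk3b was 0.801 ± 0.0627 in Ch25h+/+ Tau- and 0.572 ± 0.0434 in Ch25h-/- Tau- (SD, n = 4), a 0.714-fold difference with no overlap (exact two-sided permutation p = 0.0286, adjusted p = 0.152). In Tau+ animals the ratio was 0.796 ± 0.169 with Ch25h and 0.591 ± 0.0818 without it (SD, n = 4), with overlap (exact permutation p = 0.0857, adjusted p = 0.274). The 7 libraries rich in the ribosomal RNA transcript had the 7 lowest ratios, from 0.519 to 0.620, and the Ch25h-/- library low in it had 0.712. The part of the library class in the ratio was not tested apart from genotype.

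**Figure D4:**
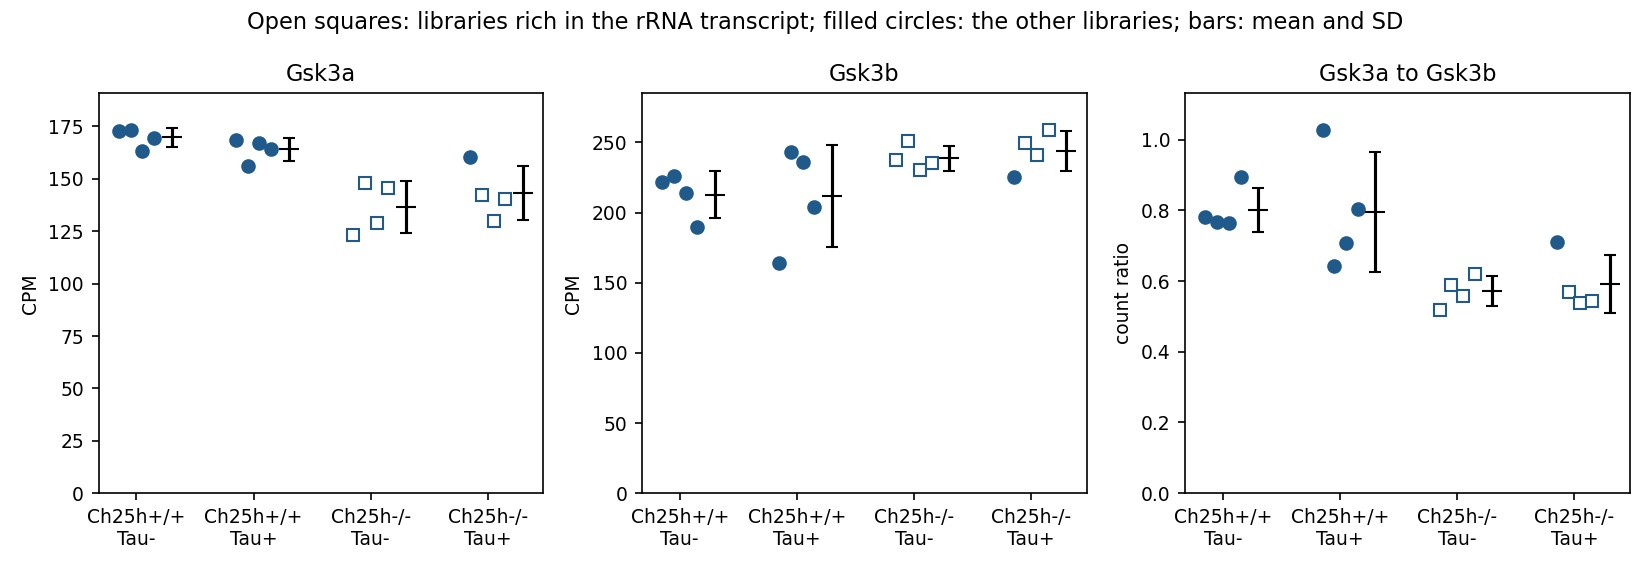
Levels of Gsk3a and Gsk3b in CPM and their count ratio (y axes, from 0) in each library, by group (x axis); open squares are libraries rich in the ribosomal RNA transcript, filled circles the others, and bars the mean and SD of 4. The 7 open squares have the lowest ratios, at 0.519 to 0.620.

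Of the CDK5 pair, Cdk5, the catalytic subunit, was at 91.3, 88.6, 89.4 and 101.1 CPM in Ch25h+/+ Tau- and at 74.0, 75.5, 79.8 and 78.3 CPM in Ch25h-/- Tau-. The groups did not overlap, but the log2 fold change of -0.27 (95% interval -0.46 to -0.08) had an adjusted p of 0.109 by edgeR. Its activator gene Cdk5r1 was at 418 to 475 CPM in Ch25h+/+ Tau- and 315 to 424 CPM in Ch25h-/- Tau-, with a log2 fold change of -0.25 (95% interval -0.43 to -0.07, adjusted p = 0.117, edgeR). In Tau+ animals the values were -0.16 for Cdk5 and -0.07 for Cdk5r1, and neither passed. The ratio of activator to kinase counts stayed between group means of 4.56 and 4.89, and none of its 4 tests had an exact permutation p under 0.629.

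The MARK kinases phosphorylate the microtubule-binding repeats of tau. Mark2 was at 166 to 177 CPM in Ch25h+/+ Tau- and 142 to 155 CPM in Ch25h-/- Tau-, without overlap, with a log2 fold change of -0.18 (95% interval -0.31 to -0.06) and an adjusted p of 0.108 by edgeR. Mark1 was at 131 to 148 and 128 to 160 CPM in these groups, with a log2 fold change of -0.02 (95% interval -0.18 to 0.14). In Tau+ animals Mark2 differed by -0.07 and Mark1 by 0.02, and neither passed. The ratio of Mark1 to Mark2 was 0.83 ± 0.0269 in Ch25h+/+ Tau- and 0.926 ± 0.0836 in Ch25h-/- Tau- (SD, n = 4, exact permutation p = 0.0857, adjusted p = 0.274).

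Fyn, a Src family tyrosine kinase, ranged from 109 to 141 CPM over all libraries. Its log2 fold change with Ch25h loss was -0.06 (95% interval -0.20 to 0.09) in Tau- and -0.15 (95% interval -0.29 to -0.002, adjusted p = 0.203, edgeR) in Tau+. Ppp2r2a ranged from 77.7 to 101 CPM and differed by -0.05 in Tau- and 0.10 in Tau+, with all 95% intervals between -0.22 and 0.27. Mapt differed by -0.19 (95% interval -0.35 to -0.04, adjusted p = 0.152, edgeR) in Tau-, where its libraries did not overlap, and by -0.04 in Tau+. Prnp differed by -0.05 in both tau states, with 95% intervals from -0.24 to 0.14. Of the 10 genes 5 were separated between the Ch25h genotypes in Tau-, Gsk3b higher and Mapt, Gsk3a, Cdk5 and Mark2 lower, against 16.2% of all genes. In Tau+ animals 0 of the 10 were separated, against 10.2% of all genes.

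The values with Ch25h loss in Tau- were then set beside the GC content of the genes. Gsk3b, with the second lowest GC content of the 10 at 46.1%, had the one value above 0, and Gsk3a, Mark2, Cdk5r1, Cdk5 and Mapt, with the 5 highest at 52.5% to 59.8%, had the 5 lowest. Within these 5, and among the other 5, the order of the values was not that of GC content: Mark2, at 57.3%, had -0.18 and Cdk5, at 53.4%, had -0.27. With offsets for GC content, Mark2 moved from -0.18 to -0.01 and Gsk3a from -0.31 to -0.09, while Cdk5 moved from -0.27 to -0.18, Cdk5r1 from -0.25 to -0.15 and Mapt from -0.19 to -0.12. Ppp2r2a, with the lowest GC content at 42.4%, moved from -0.05 to -0.20. Neither the covariate for library class nor these offsets left a call for Ch25h loss among these 10. The log2 fold changes of Prnp with tau were 1.10 and 1.08 with that covariate and 1.10 and 1.09 with the offsets.

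**Figure D5:**
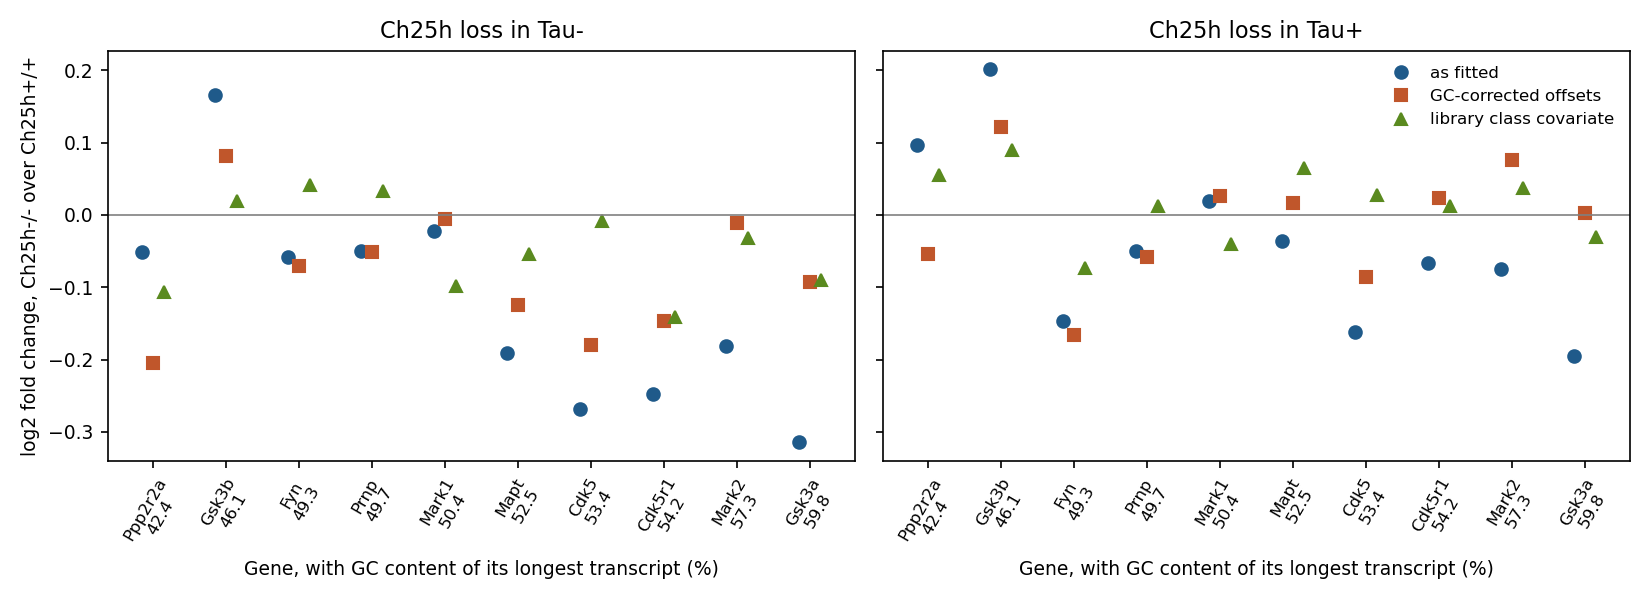
Log2 fold change of Ch25h-/- over Ch25h+/+ (y axis) of the 10 genes, ordered by the GC content of the longest transcript in percent (x axis), in Tau- (left) and Tau+ (right); circles are the values as fitted, squares those with GC-corrected offsets and triangles those with the library class as a covariate. Gsk3a in Tau- moves from -0.31 to -0.09 under both.

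The interaction, which asks whether Ch25h loss acted differently in Tau+ than in Tau-, passed for 0 of the 10 genes by edgeR, DESeq2 or limma-voom, and 0 had an unadjusted p under 0.05. Over all genes, 0.0338% passed by edgeR, all 6 of them lower, 0.31% by DESeq2 and 0.0338% by limma-voom, and 4.13% had an unadjusted p under 0.05. Values without Prnp were -0.09 to 0.18, 8 above and 1 below 0, with 95% intervals from -0.29 to 0.44. For Cdk5r1 the value was 0.18 (95% interval -0.07 to 0.44) and for Mapt 0.15 (95% interval -0.07 to 0.37).

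The wider pathway was read from 8 lists of 126 distinct genes, the 10 genes included, of which 124 were tested. They hold serine, threonine and tyrosine kinases of tau, PP2A subunits, PP2A modifiers and inhibitors, other tau phosphatases, microtubule-associated proteins, the prion protein family with its partners, and genes of tau acetylation, ubiquitination and chaperoning. With tau, Prnp was the only gene of the 124 to pass in either genotype by edgeR, and DESeq2 and limma-voom also called 1 gene each, where they called 2.39% and 2.81% of all genes in Ch25h+/+ and 0.079% and 0.0338% in Ch25h-/-. The medians of the lists' log2 fold changes were -0.03 in Ch25h+/+ and 0.02 in Ch25h-/-, against -0.01 and 0.01 over all genes. Of 33 serine and threonine kinase genes 0 passed with tau in either genotype by edgeR, with 1 at an unadjusted p under 0.05 in Ch25h+/+ and 0 in Ch25h-/-, where 9.38% and 3.68% of all genes had one. That gene was Nuak1, an AMPK-related kinase, at -0.23 (adjusted p = 0.336, edgeR). Of 18 PP2A subunit genes 0 passed with tau by edgeR, and 0 had an unadjusted p under 0.05, against the same shares of all genes.

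Loss of Ch25h in Tau- animals went with 4 of the 124 genes (3.23%) called lower and 0 higher, against 1.03% of all genes called in either direction. Of the 33 serine and threonine kinase genes (activators included) 3 were among them. Cdk5r2, which encodes p39, the other activator of CDK5, was at 606 ± 28.6 CPM in Ch25h+/+ and 431 ± 52.3 CPM in Ch25h-/- (SD, n = 4), with a log2 fold change of -0.49 (SE 0.10) and an adjusted p of 0.0320 by edgeR. Stk11, the kinase LKB1 that activates the AMPK-related kinases, was at 108 ± 6.26 and 83.3 ± 4.83 CPM (SD, n = 4), a log2 fold change of -0.37 (SE 0.08, adjusted p = 0.0376, edgeR). Dnajb2, a chaperone of the DNAJ family, was at 135 ± 4.40 and 99.1 ± 9.55 CPM (SD, n = 4), a log2 fold change of -0.44 (SE 0.09, adjusted p = 0.0376, edgeR). Gsk3a was the fourth gene. All 4 calls were lost with the library class as a covariate and with GC-corrected offsets. For none of the 3 further genes, Cdk5r2, Stk11 and Dnajb2, did the libraries of the groups overlap, against 16.2% of all genes so separated. These 3 were picked by a test on the same libraries, so their separation adds no support. The median over the 124 genes was -0.05, against 0.01 over all genes. DESeq2 called 17 lower and 2 higher of the 124, and limma-voom 24 lower and 2 higher, where they called 5.45% and 7.83% of all genes.

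In Tau+ animals, 3 of the 124 were called lower with Ch25h loss and 1 higher, a share of 3.23%, near the 3.55% called among all genes. Summed microglia markers did not overlap in this comparison, at 318 to 413 CPM with Ch25h and 249 to 304 CPM without it, and their part in the results for Ch25h loss in Tau+ was not tested. Among the 4 were 1 of the 33 kinase genes and 2 of the 20 microtubule-associated protein genes. Stk11 differed by -0.30 (adjusted p = 0.0454), Dnajb2 by -0.38 (adjusted p = 0.0384) and Map7d1, a microtubule-associated protein gene, by -0.29 (adjusted p = 0.0497), by edgeR. Map9, another microtubule-associated protein gene, rose from 109 ± 13.4 to 138 ± 11.6 CPM (SD, n = 4), a log2 fold change of 0.35 with an adjusted p of 0.0315 by edgeR. The genes that fell have 57.3% to 62.5% G or C in their longest transcripts and Map9 has 42.7%. All calls of these lists for Ch25h loss, in both tau states, were lost with the library class as a covariate and with GC-corrected offsets. With only the 8 libraries compared, the 4 calls in Tau+ were lost too, at -0.30 for Stk11 (adjusted p = 0.143), -0.37 for Dnajb2 (0.130), -0.29 for Map7d1 (0.141) and 0.35 for Map9 (0.132), and the calls in Tau- were kept. That of Map7d1 was also lost with no filter (adjusted p = 0.0594). Leaving out 1 library kept the call of Cdk5r2 in 7 of 16 fits, that of Stk11 in 5 (Tau-) and 9 (Tau+), that of Dnajb2 in 5 and 10, that of Map7d1 in 4 and that of Map9 in 11. DESeq2 called 6 lower and 4 higher in Tau+, and limma-voom 12 lower and 7 higher, where they called 7.88% and 10.6% of all genes. Of the 18 PP2A subunit genes 0 passed with Ch25h loss by edgeR, with 5 at an unadjusted p under 0.05 in each tau state, where 20.9% (Tau-) and 23.9% (Tau+) of all genes had one, and DESeq2 and limma-voom called 1 each in Tau- and 0 in Tau+. None of the 124 passed for the interaction by edgeR, DESeq2 or limma-voom, and Nuak1, at 0.30 with an adjusted p of 0.995, was the only one of the 33 serine and threonine kinase genes with an unadjusted p under 0.05, which 4.13% of all genes had.

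Around Mapt, 10 other genes were tested within 0.5 Mb and 0 passed with tau in either genotype by edgeR, the lowest adjusted p being 0.580. Cdc27, a subunit gene of the anaphase-promoting complex, passed for Ch25h loss in Tau+ at 0.37 (adjusted p = 0.0497, edgeR), a call kept in 2 of 16 fits that leave out 1 library. The call was lost with the library class covariate (0.06, adjusted p = 0.982), with GC-corrected offsets (0.18, adjusted p = 0.266) and with only the 8 libraries compared (0.38, adjusted p = 0.157). It differed by 0.38 in Tau- (adjusted p = 0.0675). Kansl1, next to Mapt, differed by 0.23 in Tau+ (adjusted p = 0.0716).

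Profiles over the 16 libraries were compared by the root mean square difference of standardised log2(CPM + 0.5). Among all genes tested, Lamr1-ps1, the pseudogene upstream of Prnp, had the profile most like that of Prnp (0.182). Next were Gm5900 (0.285), Gbp2b (0.315) and 4930590L14Rik (0.347), and all of these genes had a mean log2 CPM under 1. This search with no minimum level was added after the data were seen. Lamr1-ps1 had no counts in any Tau- library, so its likeness to Prnp restates the separation by tau given above and adds no support. Among the 14086 other genes whose mean log2 CPM was 1 or higher, those most like Prnp were Pik3ap1 (0.528), Tfpi (0.584), Slc38a5 (0.588), Lgals3bp (0.608) and Cd84 (0.622). Cd84, a receptor of immune cells, was at 1.15 ± 0.241, 5.39 ± 1.41, 1.56 ± 0.257 and 2.71 ± 1.10 CPM (SD, n = 4) in the same order of groups as the means of Prnp above. Lgals3bp, a secreted glycoprotein gene, was at 15.2 ± 4.30, 47.9 ± 8.74, 12.4 ± 1.95 and 22.8 ± 4.06 CPM (SD, n = 4). Both had a wider gap between Tau- and Tau+ means in Ch25h+/+ than in Ch25h-/-. But the interaction did not pass for Cd84, at -1.44 (log2, 95% interval -2.26 to -0.61, adjusted p = 0.349, edgeR). Nor did it pass for Lgals3bp, at -0.78 (95% interval -1.32 to -0.24, adjusted p = 0.627, edgeR). For the nearer profiles of Pik3ap1, Tfpi and Slc38a5 the interaction was -0.25, -0.22 and 0.25, with 95% intervals that include 0. For Mapt the nearest profiles, with or without that minimum, were those of Actn4 (0.360), Pacsin1 (0.427), Adgrl1 (0.428), Srebf2 (0.442) and Cep170b (0.465). These 5 had their lowest mean in Ch25h-/- Tau-, like Mapt, for example Pacsin1, a neuronal membrane-shaping protein gene, with 520 ± 23.9, 482 ± 46.1, 449 ± 30.5 and 467 ± 44.9 CPM (SD, n = 4) in the same order. The profiles share libraries, depth and base composition effects, so this likeness is a description.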

How the data were processed

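RNA of mouse brain was extracted with a column kit and made into libraries with a SMARTer mRNA kit, per the labels' protocols. STAR 2.7 and GRCm38 are named in the submitters' processing notes; the counting program, annotation and use of strand are not given in the sources used here. The authors deposited raw counts per gene and library, unnormalised. Overlapping antisense genes had at most a mean of 59.25 counts per library (9130221H12Rik, over Gsk3a). Genes were filtered with filterByExpr, leaving 17736 with 99.9% of counts, and tested with edgeR 4.0.16 (TMM, quasi-likelihood F test, two-sided, 1 mean per group, all 16 libraries) in R 4.3.3, Benjamini-Hochberg over all genes, threshold 0.05. CPM are on TMM-scaled sizes. Ratios were compared with exact permutation tests. Positions, exon lengths and GC content are from GENCODE M21, for 98.9% of symbols; GC content was known for 99.2% of genes tested. Promoters were in RefSeq for 6 of the 10 genes. Libraries were called rich in the ribosomal RNA transcript at 1000 CPM on total counts. The fit was tested on simulated data. Alternatives were other size factors and filters, DESeq2 1.42.0, and limma-voom with a quality weight for each library (limma 3.58.1). Further ones were a library class covariate, GC-corrected offsets (loess span 0.5), only the 8 libraries compared, and leaving out each library. Replicate numbers follow record order and pair nothing. The genes named were the 10, the genes of each list past the threshold or with the smallest p, tested neighbours within 0.5 Mb and the 5 most similar profiles, as far as the text needs them. The genes, lists, library class and alternatives were chosen with earlier results of these data known.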

Additional observations from a re-analysis of the deposited data

Results flagged for a closer look

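In 3 of 56 groups of 4 values, 1 library lay far from the others by Dixon's test at 95%, which flags about 1 in 20 groups by chance. The highest Ppp2r2a level in Ch25h-/- Tau- was 89.9 CPM, in replicate 4, with the other 3 libraries at 80.8 to 81.8 CPM. The highest Ppp2r2a level in Ch25h-/- Tau+ was 101 CPM, in replicate 2, with the others at 85.0 to 87.8 CPM. The highest count ratio of Gsk3a to Gsk3b in Ch25h+/+ Tau- was 0.894, in replicate 4, with the others at 0.763 to 0.780.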

How the results depend on the processing

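Prnp passed with tau in both genotypes in all 8 alternative fits and all 16 fits without 1 library, with log2 fold changes of 1.03 to 1.15, and so did Lamr1-ps1 in the 7 fits that gave it a value and in those 16. Counts of all genes past the threshold moved by over 1.5 times as follows; the cause was not tested. With tau in Ch25h+/+ they were 424 with DESeq2 and 498 with limma-voom, and in Ch25h-/- 28 with no filter, 2 with a mean of at least 50 counts and 14 with DESeq2. For Ch25h loss in Tau- they were 522 with no filter, 967 with DESeq2, 1388 with limma-voom, 0 with the library class covariate, 13 with GC-corrected offsets and 1229 with only the 8 libraries compared; of the 10 genes 0 passed with a mean of at least 50 counts, the covariate or the offsets, 2 with DESeq2 or the 8 libraries and 5 with limma-voom. In Tau+ they were 1397 with DESeq2, 1883 with limma-voom, 10 with the covariate, 203 with the offsets and 106 with the 8 libraries, and 1 of the 10 genes passed with limma-voom. For the interaction they were 57 with no filter, 55 with DESeq2 and 3 with the covariate.

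Log2 fold changes that changed sign were these, none of them past the threshold in either fit. Gsk3b with tau in Ch25h+/+ was 0.0035 with a mean of at least 50 counts, 0.021 with limma-voom and 0.00042 with the 8 libraries. With tau in Ch25h-/-, Cdk5 was -0.0010 with limma-voom and -0.032 with the covariate, and Cdk5r1 -0.0025, -0.018 and, with the offsets, -0.0091. Under Ch25h loss in Tau- with the covariate, Prnp was 0.034 and Fyn 0.042. With Ch25h loss in Tau+ and the covariate, Prnp was 0.012, Mapt 0.064, Cdk5 0.028, Cdk5r1 0.013, Mark1 -0.039 and Mark2 0.037; with the offsets Mapt was 0.017, Gsk3a 0.0028, Cdk5r1 0.023, Mark2 0.076 and Ppp2r2a -0.055; with limma-voom Mark1 was -0.0064. The interaction of Prnp was -0.0055 with relative log expression factors, -0.00061 with no filter, -0.018 with a mean of at least 50 counts, -0.0055 with DESeq2, -0.021 with the covariate and -0.0066 with the offsets.

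Without 1 library, genes past the threshold numbered 160 (without replicate 4 of Ch25h+/+ Tau+) to 299 with tau in Ch25h+/+, 6 to 13 (without replicate 4 of Ch25h-/- Tau-) in Ch25h-/-, 3 (without replicate 1 of Ch25h+/+ Tau-) to 1306 (without replicate 1 of Ch25h+/+ Tau+) with Ch25h loss in Tau-, 108 (without replicate 4 of Ch25h+/+ Tau+) to 1691 (without replicate 1 of Ch25h-/- Tau+) in Tau+, and 0 (without replicate 3 of Ch25h-/- Tau+) to 22 (without replicate 1 of Ch25h+/+ Tau+) for the interaction. Of the 10 genes, 0 to 2 passed with Ch25h loss in Tau- and 0 to 1 in Tau+. Signs changed within these ranges: with tau in Ch25h+/+, Gsk3b -0.069 to 0.10 and Ppp2r2a -0.081 to 0.035; with tau in Ch25h-/-, Gsk3b -0.0032 to 0.058, Cdk5 -0.039 to 0.072, Cdk5r1 -0.072 to 0.068, Mark1 -0.075 to 0.038, Mark2 -0.054 to 0.016 and Fyn -0.054 to 0.0097. With Ch25h loss in Tau-, Mark1 was -0.096 to 0.021 and Ppp2r2a -0.099 to 0.0085; in Tau+, Prnp was -0.13 to 0.019 and Mark1 -0.030 to 0.055. For the interaction, Prnp was -0.074 to 0.064, Gsk3b -0.079 to 0.093 and Mark1 -0.013 to 0.10. Among log2 ratios, Gsk3a to Gsk3b was -0.16 to 0.066 with tau in Ch25h+/+ and -0.052 to 0.081 in Ch25h-/-; Cdk5r1 to Cdk5 was -0.19 to 0.030 and -0.12 to 0.036 with tau, and -0.062 to 0.11 and -0.035 to 0.19 with Ch25h loss in Tau- and Tau+; Prnp to Mapt was -0.098 to 0.11 with Ch25h loss in Tau+, and Mark1 to Mark2 -0.075 to 0.042 with tau in Ch25h-/-. Lamr1-ps1 rests on 35 to 64 counts per Tau+ library.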
